A study of Mus musculus with 20 samples.

Results

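Dusp1, Dusp2, Dusp4, Dusp5, Dusp6, Dusp10 and Dusp16 encode dual-specificity phosphatases that act on mitogen-activated protein (MAP) kinases. They were chosen by name, with earlier results of these data known. All 7 were found among the 24862 gene rows of the deposited count tables and passed the filter on low counts in every comparison. The study concerns TH17 cells, CD4+ T cells that produce interleukin-17, from C57BL/6 mice, and a pathway of the microRNA miR-21, the ubiquitin ligase Peli1 and the transcription factor c-Rel. RNA was sequenced in 12 libraries that form 6 groups of 2, and 8 chromatin accessibility (ATAC-seq) samples were not analysed here. Each library is given as replicate 1 or 2 of its group. Nothing in the labels ties the 2 replicates of a group to different mice or cultures, so p-values may measure technical spread only.

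The CNS and ileum groups were GFP+ TH17 cells that had infiltrated the central nervous system or were taken from the ileum, with 50000 cells used per sample. The labels do not name the gene that drives GFP, the age of the animals or any pooling of them. The other 4 groups were naive CD4+ T cells stimulated on anti-CD3ε with anti-CD28, anti-IL-4 and anti-IFN-γ. Ad-control and Ad-c-Rel cells were grown under TH17(β) conditions, with TGF-β1 at 2 ng/ml and IL-6 at 20 ng/ml, and carried a construct labelled as control or as c-Rel. The miR-21-/- and control cells were grown under TH17(23) conditions, in which IL-1β, IL-23 and IL-6 were each at 20 ng/ml. The knockout is named without its allele, and its controls are named without further genotype.

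MAP kinases are switched on when an upstream kinase phosphorylates a threonine and a tyrosine in their activation loop. MAP kinase phosphatases remove both phosphates and so end the signal. Many of them are themselves transcribed in response to MAP kinase activity, which makes them feedback regulators of T cell receptor, cytokine and stress signals. Dusp1 (MKP-1), Dusp2 (PAC1), Dusp4 (MKP-2) and Dusp5 are inducible nuclear enzymes, and Dusp5 acts selectively on the kinase ERK. Dusp6 (MKP-3) is the cytoplasmic ERK-selective enzyme, while Dusp10 (MKP-5) and Dusp16 (MKP-7) prefer the stress kinases JNK and p38.

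In the mouse build GRCm38 (mm10), RefSeq places Dusp1 at chr17:26505591-26508472 on the minus strand and Dusp5 at chr19:53529145-53541809 on the plus strand. Dusp2 is at chr2:127336159-127338377, Dusp4 at chr8:34807610-34819894, Dusp6 at chr10:99263231-99267489, Dusp10 at chr1:184034381-184075636 and Dusp16 at chr6:134715468-134807063. Dusp16 overlaps the gene 1700055D16Rik, which had 52 counts over all 12 libraries, and the strand setting of the counting is not given in the sources used here. The 250 bases upstream of the annotated start are shown for Dusp1 and Dusp5, the genes whose levels spanned the widest range across the groups. Both are from RefSeq (GRCm38.p6), with Dusp1 from chr17:26508473-26508722 on the minus strand and Dusp5 from chr19:53528895-53529144 on the plus strand. In Dusp1 the capitals mark the cAMP response element and the E-box, and in Dusp5 they mark adjacent CArG boxes.
Dusp1 upstream: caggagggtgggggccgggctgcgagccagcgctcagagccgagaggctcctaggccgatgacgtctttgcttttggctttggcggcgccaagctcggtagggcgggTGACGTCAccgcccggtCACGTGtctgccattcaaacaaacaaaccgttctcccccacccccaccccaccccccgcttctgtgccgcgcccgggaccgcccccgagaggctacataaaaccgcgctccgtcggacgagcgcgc
Dusp5 upstream: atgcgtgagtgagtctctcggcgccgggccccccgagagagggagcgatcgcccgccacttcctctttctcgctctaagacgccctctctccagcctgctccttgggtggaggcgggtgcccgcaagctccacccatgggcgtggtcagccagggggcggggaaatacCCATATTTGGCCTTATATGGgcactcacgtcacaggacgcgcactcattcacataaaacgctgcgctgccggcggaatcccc
Of the 7 genes, 6 were matched by symbol to upstream sequences (all but Dusp4), and 6 motifs were searched on both strands. For Dusp16 the window was chr6:134792629-134792878 on the minus strand, inside the gene span given above. Its start is thus not the outer end of the gene. The cAMP response element TGACGTCA, bound by CREB and ATF proteins, lay 143 to 136 bases before the start of Dusp1, and 1.55% of 32841 promoters of the same length held it. CArG boxes, the motif bound by serum response factor, were found by name in Dusp5 alone, at 82 to 73 and 72 to 63 bases before the start, against 1.47% of promoters. The E-box CACGTG occurred in Dusp1 at 126 to 121 bases and in Dusp2 at 109 to 104 bases before the start, and in 6.02% of promoters. The AP-1 motif TGANTCA (6.75% of promoters), the κB site searched by name (7.25%) and the ETS motif CCGGAA (12%) were found in 0 of the 6. Each motif was searched by a fixed pattern, so looser forms of these sites were not counted. These are matches of letters in this window, not sites of binding.

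Gene counts per library were 15421743 to 19930807 in the CNS, ileum and Ad libraries and 32766097 to 36711252 in the miR-21-/- and control libraries. Levels are given as CPM, the counts of a gene per 1000000 gene counts of its library, and the files hold no transcript lengths, so levels are compared within a gene only. A low-input kit was used for the sorted cells and a stranded total RNA kit for the miR-21-/- and control cells, so kit and source cannot be told apart where sorted and cultured cells are set side by side. Across genes on the log2 scale, r between the replicates was 0.928 for CNS, 0.915 for ileum and 0.989 to 0.997 for the cultured groups. Replicate 2 of both sorted groups had fewer genes with a count, 11545 against 14224 in CNS and 10771 against 13927 in ileum. T cell markers were present in all 12 libraries, but the TH17 markers of the CNS libraries were low, with a summed level of 303 and 281 CPM over 8 genes against 8854 and 9997 CPM in ileum. Il17a, the gene of interleukin-17A, was at 79.9 and 79.2 CPM in CNS and at 2256 and 2579 CPM in ileum. All 14 myeloid and microglial markers were higher in CNS, where they summed to 18796 and 19041 CPM, against 2252 and 2396 CPM in ileum and 25.1 to 55.7 CPM in the cultures.

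Across the 6 groups the phosphatases fell into different orders. Dusp1, a broad-range nuclear phosphatase and immediate-early gene, was at 1761 and 1633 CPM in CNS and at 1375 and 1553 CPM in ileum. In cultures it was at 38.9 and 51.3 CPM in Ad-control, 67.2 and 66.7 CPM in Ad-c-Rel, 17.3 and 13.6 CPM in miR-21-/- and 19.2 and 17.6 CPM in control. Its order was thus CNS, ileum, Ad-c-Rel, Ad-control, control and miR-21-/-, with no overlap between neighbouring groups and a 110-fold range of group means.

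Dusp5, the nuclear ERK phosphatase, was highest in ileum, at 907 and 1016 CPM, and lower in CNS, at 431 and 402 CPM. It was at 57.0 and 44.2 CPM in control, 32.3 and 31.2 CPM in Ad-c-Rel, 33.1 and 9.64 CPM in miR-21-/- and 8.24 and 7.93 CPM in Ad-control. Only Ad-c-Rel and miR-21-/- overlapped in that order, and the group means spanned 119-fold. Dusp10, the JNK and p38 phosphatase, stood at 385 and 383 CPM in ileum and at 67.7 and 60.7 CPM in CNS. Its cultured levels were 35 and 30.3 CPM in Ad-control, 32.7 and 33.2 CPM in Ad-c-Rel, 18.4 and 19.1 CPM in miR-21-/- and 15.3 and 16.2 CPM in control. Ad-control and Ad-c-Rel overlapped, and the means of the 6 groups spanned 24.4-fold.

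Dusp2, a nuclear enzyme first described in activated lymphocytes, was highest in CNS, at 423 and 478 CPM, followed by ileum at 165 and 203 CPM. It was at 194 and 81.4 CPM in miR-21-/-, 143 and 93.4 CPM in control, 69.9 and 63.1 CPM in Ad-c-Rel and 63.3 and 43.1 CPM in Ad-control. The miR-21-/- libraries overlapped with both of their neighbours in the order, ileum and control, and so did the Ad groups with each other. Dusp4 had another order, with 185 and 183 CPM in Ad-c-Rel, 183 and 181 CPM in ileum and 129 and 117 CPM in Ad-control. It was lower at 102 and 63.8 CPM in control, 49.2 and 48.3 CPM in CNS and 44.2 and 24.7 CPM in miR-21-/-. CNS thus stood among the cultured groups for Dusp4, and no neighbouring groups overlapped.

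Dusp6, the cytoplasmic ERK phosphatase, varied least, with a 2.95-fold range of group means. It was at 181 and 201 CPM in CNS, 145 and 193 CPM in ileum, 105 and 101 CPM in Ad-control and 123 and 122 CPM in Ad-c-Rel. The TH17(23) cultures had 72.5 and 57.2 CPM in miR-21-/- and 94.3 and 70.0 CPM in control, and overlapped, as did CNS and ileum. Dusp16, which prefers JNK and p38, was lowest in CNS, at 10.8 and 3.07 CPM from 181 and 59 counts, and 59 was the smallest count of any of the 7 genes. It was at 30.3 and 28.6 CPM in ileum, 29.4 and 29.7 CPM in Ad-control, 36.4 and 36.7 CPM in Ad-c-Rel, 39.8 and 44.8 CPM in miR-21-/- and 52.0 and 57.3 CPM in control. Ileum and Ad-control overlapped in that order.

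Some neighbouring places in these orders depended on the scaling. With TMM factors over all 12 libraries, Dusp1 overlapped between CNS (1750 and 1579 CPM) and ileum (1624 and 1705 CPM). Dusp4 was then higher in ileum (216 and 199 CPM) than in Ad-c-Rel (179 and 179 CPM). On that scale ileum also stood above CNS for Dusp6, with overlap, and above Ad-control for Dusp16, and Dusp2 no longer overlapped between the Ad groups or between ileum and miR-21-/-.

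All 4 sorted libraries were above all 8 cultured libraries for Dusp1, Dusp5, Dusp6 and Dusp10, or 4 of the 7 genes, and below them for 0 of 7. Among 10144 genes whose mean was 5 CPM or more, 11.1% were above in this way and 18.7% below. For Dusp1 the lowest sorted library exceeded the highest cultured library 20.4-fold, for Dusp5 7.05-fold, for Dusp10 1.74-fold and for Dusp6 1.18-fold. Egr1, Fos, Jun and Ier2 are among the 10 genes of a heat shock and dissociation list. The list summed to 5313 to 7344 CPM in the sorted libraries and to 835 to 1462 CPM in the cultures. In CNS, Fos was at 2435 and 2508 CPM, and Hspa1a, a heat shock gene, at 13.5 and 13.0 CPM. In ileum, Fos was at 1261 and 1233 CPM and Hspa1a at 263 and 219 CPM. The part of these genes in the phosphatase levels was not tested.

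**Figure D1:**
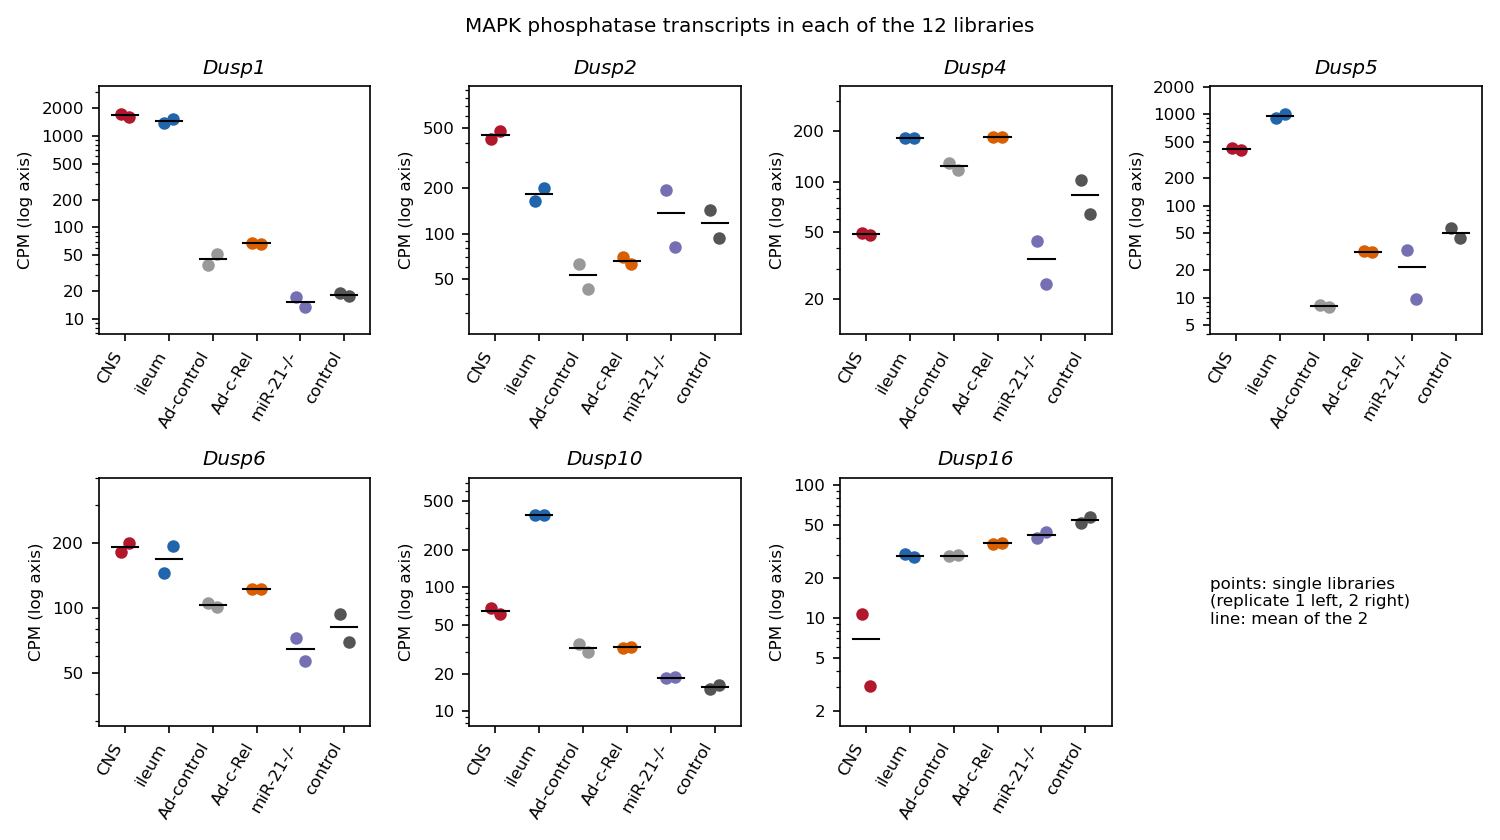
CPM (log axis) of each phosphatase in each of the 12 libraries by group, with points for single libraries and a line for the mean of the 2. Dusp1 and Dusp5 lie between 402 and 1761 CPM in the sorted libraries and at 67.2 CPM or less in the cultured ones, while Dusp16 is lowest in CNS.

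The genes most like each phosphatase were found by Pearson's r of log2(CPM + 1) over the 12 libraries, among the 10144 genes. The points share kits and culture conditions, so these are descriptions of a few clusters of libraries. Dusp1 was most like Fos (r = 0.994), an immediate-early transcription factor gene, and Tmem176b (0.994). Dusp5 was most like Plaur (0.983), the urokinase receptor gene, and Bcl2a1d (0.981), an anti-apoptotic gene. Dusp10 was most like Eif1 (0.993), Dusp6 most like Ranbp1 (0.988) and Dusp16 most like Gls2 and Sesn3 (0.981 each). Dusp2 was most like Tpcn2 (0.962), and Dusp4 had the lowest leading value, 0.944 for Gpat3. Between the phosphatases, r ranged from -0.722 for Dusp1 with Dusp16 to 0.924 for Dusp1 with Dusp6.

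The comparison of CNS with ileum asks how TH17 cells differ between an inflamed organ and the gut. Dusp4, Dusp5 and Dusp10 were lower in CNS and Dusp2 was higher, at an adjusted p below 0.05 by edgeR's quasi-likelihood test with Benjamini-Hochberg adjustment over all 12038 genes tested. That is 4 of 7 called, where 9.66% of all tested genes were called, and 3 of 7 lower, where 5.66% were lower. In these bulk samples, fewer cells of a type and less RNA per cell cannot be told apart.

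Dusp10 differed most, at 67.7 and 60.7 CPM in CNS against 385 and 383 CPM in ileum. The CNS libraries were 5.98-fold lower by their means, and the fitted log2 fold change was -2.78 (SE 0.163, 95% interval -3.19 to -2.37, edgeR adjusted p = 0.00112). Dusp4, with 49.2 and 48.3 CPM against 183 and 181 CPM, had a log2 fold change of -2.10 (SE 0.195, -2.59 to -1.61, edgeR adjusted p = 0.00400). The spread within each group was small beside both differences, and both calls held without CNS replicate 2 or ileum replicate 2.

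Dusp5 was at 431 and 402 CPM in CNS and at 907 and 1016 CPM in ileum, a log2 fold change of -1.41 (SE 0.123, -1.71 to -1.10, edgeR adjusted p = 0.00336). Dusp2 went the other way, at 423 and 478 CPM against 165 and 203 CPM, with a log2 fold change of 1.10 (SE 0.170, 0.67 to 1.52, edgeR adjusted p = 0.0187). The call for Dusp5 held without replicate 2 of either tissue. Without CNS replicate 2, the call for Dusp2 ended, with a log2 fold change of 0.95 and an edgeR adjusted p of 0.0539.

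Dusp1 and Dusp6 showed no difference that passed the test. For Dusp1 the log2 fold change was 0.01, with a 95% interval of -0.26 to 0.28 (edgeR adjusted p = 0.964). In CPM, Dusp1 and Dusp2 were higher in both CNS libraries than in either ileum library, 2 of 7, as were 38.9% of tested genes, and 4 of 7 were lower in that way, as were 21.6%. For Dusp6 it was -0.02, with an interval of -0.53 to 0.49 (edgeR adjusted p = 0.972). Dusp16 had a log2 fold change of -2.30 but a wide interval of -4.22 to -0.38, and did not pass (edgeR adjusted p = 0.143). Its CNS libraries differed from each other, at 10.8 and 3.07 CPM, and both were below the ileum libraries at 30.3 and 28.6 CPM. DESeq2 called it (adjusted p = 0.0204).

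Over the 7 genes the median log2 fold change was -1.41, against 0.08 over all tested genes. Scaling to total gene counts in place of TMM moved the median of all genes to 0.28, and scaling to 12 T cell identity genes moved it to 0.53. On the T cell scale Dusp10 was at -2.33, Dusp4 at -1.65, Dusp5 at -0.95 and Dusp2 at 1.54, and these 4 calls were kept. Dusp6 changed sign with scaling, to 0.17 on totals and 0.43 on T cell genes. Dusp1 moved to 0.21 on totals and 0.47 on T cell genes, and did not pass on either (edgeR adjusted p = 0.332 and 0.0721).

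Markers of other cells moved with this comparison. The 14 of 14 myeloid markers that were higher in CNS, with the sums given above, had none at 0 in either tissue. B and plasma cell markers ran the other way, with 4 of 6 tested lower in CNS and sums of 10.6 and 1.66 CPM against 3534 and 3480 CPM. Ms4a1 and Pax5 were at 0 in both CNS libraries. Of 6 neutrophil markers, 3 were higher in CNS, with sums of 391 and 353 CPM against 10.0 and 0.117 CPM. Of 12 T cell identity genes, 4 were lower and 0 higher, with sums of 5561 and 5664 CPM against 6778 and 6613 CPM. Of the 10 heat shock and dissociation genes, 2 were higher, Egr1 and Fos, and 5 lower, including Jun. Egr1 and Fos are also in the ERK feedback list below, and Jun is also among the stress MAP kinase regulators. The part of these cells and of handling in the phosphatase differences was not tested.

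Upstream of the phosphatases, 0 of 7 tested MAP kinase genes were called. Of 17 tested activating kinases, 1 was higher, 4 were lower and 12 did not pass, beside 9.66% of all tested genes called. Braf (log2 fold change -2.20), which starts the ERK cascade, and Map3k1 (-1.98), which feeds JNK, were lower in CNS. Map2k1, the ERK activator MEK1, was higher at 1.00.

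ERK feedback and target genes other than these phosphatases gave 4 higher and 1 lower of 16 tested, with a median of 0.49. Egr1, an immediate-early transcription factor, was higher at 2.76, Ier3 at 3.49 and Fos at 0.79, and Junb was lower at -0.86. Among phosphatases of the pathway outside the dual-specificity family, 1 was higher and 1 lower of 7. Ptpn7, a haematopoietic tyrosine phosphatase that acts on ERK, was higher at 1.32, and Ppp2ca, a catalytic subunit of protein phosphatase PP2A, was lower at -1.58. Of 13 stress MAP kinase regulators, 3 were higher, namely Zfp36 (1.74), Atf3 (1.39) and Mapkapk3 (0.98), and 2 were lower, including Atf2 (-1.34). None of 2 other MAP kinase phosphatases of the dual-specificity family and none of 8 atypical dual-specificity phosphatases that were tested passed edgeR's adjusted threshold.

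**Figure D2:**
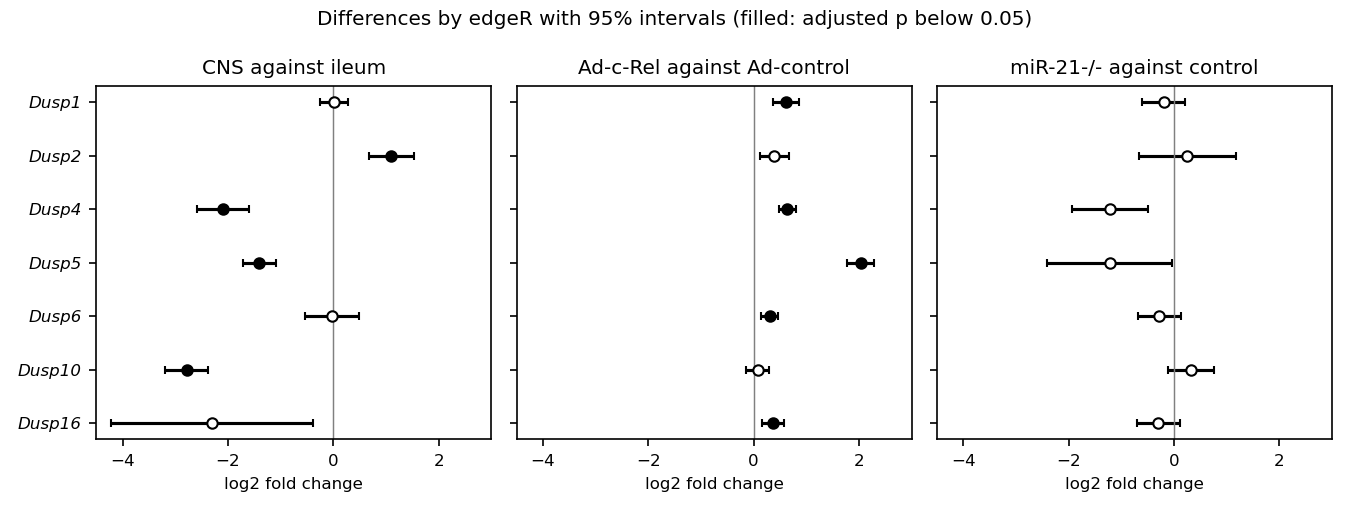
Log2 fold change of each phosphatase by edgeR in the 3 comparisons, with points for the estimate, bars for the 95% interval and filled points where adjusted p was below 0.05. In CNS against ileum, Dusp4, Dusp5 and Dusp10 lie between -2.78 and -1.41, and in Ad-c-Rel against Ad-control Dusp5 stands at 2.03 with all other estimates at 0.64 or less.

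The comparison of Ad-c-Rel with Ad-control asks what the c-Rel construct changes in TH17(β) cells. Rel, the gene of c-Rel, was at 57.5 and 61.9 CPM in Ad-c-Rel and at 10.8 and 7.02 CPM in Ad-control, the direction its label gives. Dusp5, Dusp4, Dusp1, Dusp16 and Dusp6 were higher in Ad-c-Rel at an edgeR adjusted p below 0.05, and none was lower. That is 5 of 7 higher, where 8.16% of 11711 tested genes were higher, and 0 of 7 lower, where 6.12% were lower.

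Dusp5 rose most, from 8.24 and 7.93 CPM in Ad-control to 32.3 and 31.2 CPM in Ad-c-Rel. The log2 fold change was 2.03 (SE 0.120, 95% interval 1.78 to 2.29, edgeR adjusted p = 4.05e-08), a 4.09-fold rise that ranked 8 by p among all tested genes. Dusp4 rose from 129 and 117 CPM to 185 and 183 CPM, with a log2 fold change of 0.64 (SE 0.0763, 0.48 to 0.80, edgeR adjusted p = 2.97e-05). In CPM the libraries of the groups did not overlap for these genes, nor for Dusp1, Dusp6 and Dusp16, 5 of 7 higher, where 21.4% of tested genes were higher in that way.

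Dusp1 rose from 38.9 and 51.3 CPM to 67.2 and 66.7 CPM, a log2 fold change of 0.62 (SE 0.116, 0.37 to 0.87, edgeR adjusted p = 0.00198). Dusp6 went from 105 and 101 CPM to 123 and 122 CPM, a smaller change of 0.30 (SE 0.0763, 0.14 to 0.47, edgeR adjusted p = 0.0145). Its call ended without Ad-c-Rel replicate 1 or replicate 2, at edgeR adjusted p of 0.0714 and 0.114. Dusp16, at 29.4 and 29.7 CPM against 36.4 and 36.7 CPM, had a change of 0.36 (SE 0.0982, 0.15 to 0.57, edgeR adjusted p = 0.0219). That call ended when any 1 of the 4 libraries was left out (edgeR adjusted p = 0.0504 to 0.136), with total-count scaling (0.0512) and with DESeq2 (0.0788).

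Dusp2, at 63.3 and 43.1 CPM in Ad-control and 69.9 and 63.1 CPM in Ad-c-Rel, overlapped between the groups and did not pass (log2 fold change 0.39, 95% interval 0.12 to 0.66, edgeR adjusted p = 0.0559). It passed without Ad-control replicate 1 (0.66, edgeR adjusted p = 0.00380), without Ad-c-Rel replicate 2 (0.45, 0.0103) and with no filter on low counts (0.38, 0.00175), and fell to 0.15 (0.386) without Ad-control replicate 2. Dusp10, at 35 and 30.3 CPM against 32.7 and 33.2 CPM, had a log2 fold change of 0.08, with an interval of -0.14 to 0.29 (edgeR adjusted p = 0.677). The median of the 7 was 0.39, against -0.01 over all tested genes. Without Ad-c-Rel replicate 1 the number higher was 3, and a fit over all 12 libraries with a common spread called 0, with an adjusted p of 0.257 for Dusp5.

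Of 15 tested genes of ERK feedback and response, 6 were higher in Ad-c-Rel, 0 were lower and 9 did not pass, with a median of 0.57, beside 8.16% of all tested genes higher. Egr1 rose by 1.06 and Egr2 by 0.82 on the log2 scale, and so did Spry1 (0.78), a Sprouty inhibitor of Ras signalling, and Phlda1 (0.69). Stress MAP kinase regulators gave 4 higher and 0 lower of 13. These were Gadd45b (1.87), which binds the kinase MEKK4, the transcription factors Atf3 (1.55) and Jun (0.40), and the p38 substrate kinase gene Mapkapk2 (0.28). Dusp8, a JNK phosphatase, was called at 1.38 but lay at only 0.502 to 2.13 CPM. Among 8 atypical dual-specificity phosphatases Dusp3 alone was called (0.65).

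Among the kinases, of 9 MAP kinase genes tested, 0 were called, and of 17 activating kinases 3 were higher and 1 lower: Map3k2 (0.48), Map3k8 (0.38), which encodes TPL-2, and Map2k6 (0.31) rose, and Map2k5 (-0.38) fell. Ras activation genes gave 3 higher and 3 lower of 13, beside 8.16% of all tested genes higher and 6.12% lower. Rasa2 (0.47) and Nf1 (0.59) were among the higher and Rasa1 (-0.27) among the lower. Of 7 tested phosphatases of the pathway outside the dual-specificity family, 0 were called.

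The heat shock and dissociation list moved with this comparison, with 8 of 10 genes higher in Ad-c-Rel and sums of 1462 and 1457 CPM against 1171 and 1193 CPM. None of its genes was at 0. Among the genes higher, Egr1, Fos and Jun are the same genes that were counted in the ERK feedback and stress lists above. Myeloid markers summed to 55.7 and 53.4 CPM in Ad-c-Rel and to 31.7 and 35.5 CPM in Ad-control, and 3 of 5 tested were higher. C1qa, C1qb and C1qc were at 0 in all 4 Ad libraries. The part of handling stress in the phosphatase differences was not tested.

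**Figure D3:**
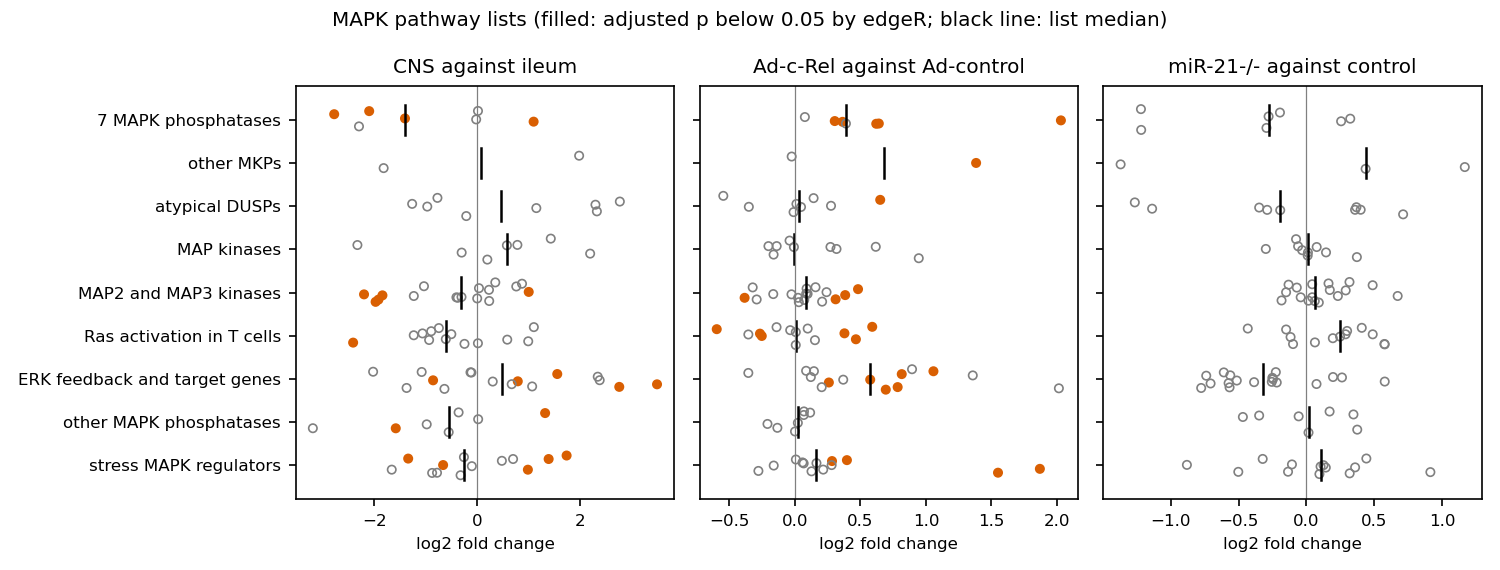
Log2 fold change by edgeR of every tested gene in the 7 MAPK phosphatases and 8 pathway lists, by comparison, with filled points for adjusted p below 0.05 and a black line at each list median (the axes differ between panels). In Ad-c-Rel against Ad-control, the medians of the 7 phosphatases (0.39) and of ERK feedback and target genes (0.57) lie above 0, and no point is filled in miR-21-/- against control.

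The comparison of miR-21-/- with control asks what loss of the microRNA changes in TH17(23) cells. The mature guide strand, miR-21a-5p, is encoded at chr11:86584120-86584141 on the minus strand (RefSeq, GRCm38.p6), and is shown with its seed, bases 2 to 8, in capitals because it is the sequence the knockout removes.
miR-21a-5p: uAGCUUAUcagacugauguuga
The precursor row Mir21a had 0 and 0 counts in the miR-21-/- libraries and 25 and 20 counts in control. In the edgeR fit on the groups alone, no phosphatase passed the adjusted threshold, 0 of 7, where 0% of all 13428 tested genes passed. At an unadjusted p below 0.05 there were 2 of 7, Dusp4 and Dusp5, both lower, where 11.4% of tested genes were lower and 21.0% passed in all. DESeq2 also called Dusp4 and Dusp5, 2 of 7, where it called 6.42% of the genes to which it gave an adjusted p. With the replicate number in the model (a replicate block), edgeR called Dusp4, Dusp5, Dusp6 and Dusp16, 4 of 7, all lower. That fit called 35.8% of all tested genes, and 18.8% as lower. The labels do not say that replicate numbers pair the samples.

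Dusp4 was at 44.2 and 24.7 CPM in miR-21-/- and at 102 and 63.8 CPM in control. The groups did not overlap, and the log2 fold change was -1.22 (SE 0.291, 95% interval before adjustment -1.94 to -0.50, edgeR adjusted p = 0.139). DESeq2 gave an adjusted p of 0.00201. Dusp5, at 33.1 and 9.64 CPM against 57.0 and 44.2 CPM, had the same estimate of -1.22 with more spread (SE 0.480, -2.41 to -0.03, edgeR adjusted p = 0.228; DESeq2 adjusted p = 0.0428).

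In both groups replicate 2 had the lower level of Dusp4 and of Dusp5. In control, Dusp4 was at 63.8 CPM against 102 CPM and Dusp5 at 44.2 CPM against 57.0 CPM. Deviations of same-numbered libraries correlated across genes at 0.66 here, but the labels do not say that replicate numbers pair the samples. Without replicate 1 of miR-21-/-, Dusp4 stood at -1.57 (edgeR adjusted p = 0.0225) and Dusp5 at -2.22 (0.00856). Without replicate 2 of miR-21-/-, Dusp4 stood at -0.90 (edgeR adjusted p = 0.225) and Dusp5 at -0.61 (0.260), so the estimates depend on which of these libraries is kept. For Dusp2 the groups overlapped, at 194 and 81.4 CPM against 143 and 93.4 CPM, and its estimate of 0.26 (edgeR adjusted p = 0.708) turned to -0.37 without miR-21-/- replicate 1.

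Dusp1 (log2 fold change -0.19, edgeR adjusted p = 0.516), Dusp6 (-0.28, 0.364), Dusp16 (-0.29, 0.353) and Dusp10 (0.32, 0.337) lay closer to 0. In CPM, Dusp1, Dusp4, Dusp5 and Dusp16 were lower in both miR-21-/- libraries than in either control, 4 of 7, and Dusp10 was higher, 1 of 7. Of all tested genes, 30.6% were lower in this way and 23.7% higher. The median of the 7 was -0.28, against -0.02 over all tested genes.

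None of the 8 pathway lists held a gene that passed edgeR's adjusted threshold in the fit on the groups alone. The ERK feedback and target list had 14 of 18 estimates below 0, with a median of -0.32. TH17 marker genes summed to 1152 and 602 CPM in miR-21-/- and to 2871 and 1910 CPM in control, with all 7 tested estimates below 0. Their part in the levels of Dusp4 and Dusp5 was not tested.

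**Figure D4:**
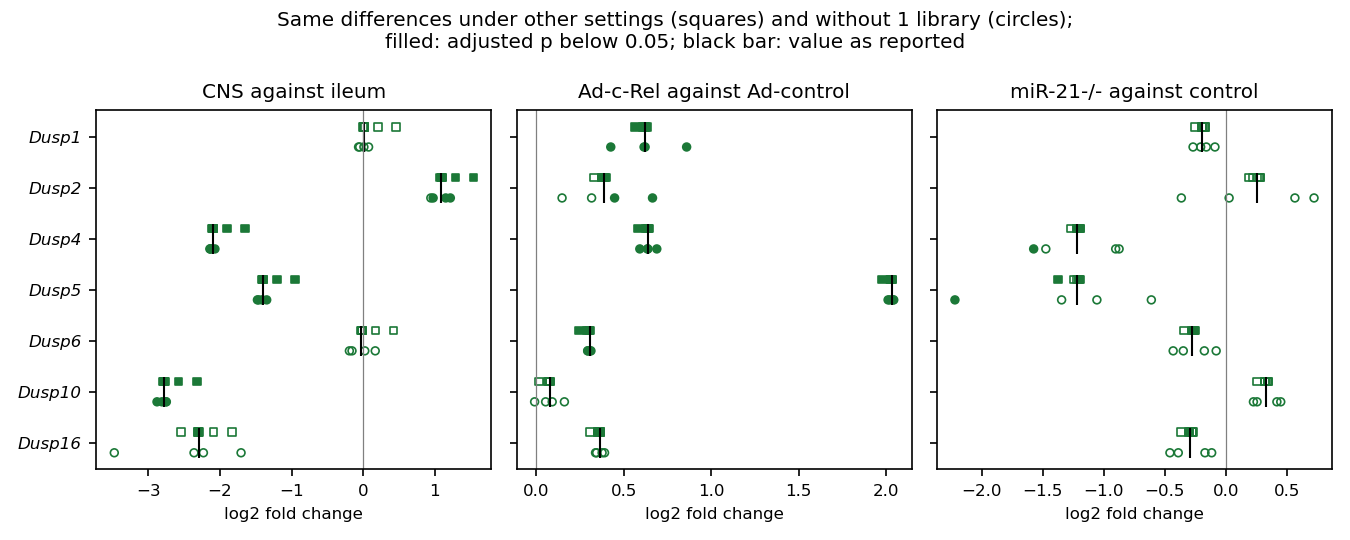
Log2 fold change of each phosphatase under other settings (squares) and with 1 library left out (circles), filled where adjusted p was below 0.05, with a black bar for the value as reported (the axes differ between panels). Dusp4, Dusp5 and Dusp10 lie between -2.88 and -0.95 in the settings run of CNS against ileum, while the Dusp2 estimates in miR-21-/- against control lie on both sides of 0.

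Set side by side, Dusp4 and Dusp5 had the values -2.10 and -1.41 in CNS against ileum, 0.64 and 2.03 in Ad-c-Rel against Ad-control and -1.22 and -1.22 in miR-21-/- against control. These comparisons share no libraries. Dusp10 had -2.78, 0.08 and 0.32, and Dusp1 had 0.01, 0.62 and -0.19. Dusp2 had 1.10, 0.39 and 0.26, Dusp6 had -0.02, 0.30 and -0.28, and Dusp16 had -2.30, 0.36 and -0.29. None of the miR-21-/- values passed edgeR's adjusted threshold in the fit on the groups alone, and some values of the other comparisons did not pass either. Whether the differences vary between comparisons was not tested.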

How the data were processed

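The deposited tables hold whole-number read counts per gene, unnormalized, from paired-end Illumina reads, per the labels' protocols. Tools that the submitters' processing notes list, with no role, include TopHat2 2.1.0, HTSeq 0.11.0 and Trim Galore 0.4.4, with the build mm10. Not given in the sources used here are the annotation, the strand setting and the kit of the Ad libraries. The HTSeq summary lines (14.7% to 26.1% of each table) were left out. The phosphatases and all gene lists were chosen with earlier results of these data known.

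The 4 libraries of a comparison were fitted alone by edgeR 4.0.16 (R 4.3.3), using filterByExpr, TMM factors and the quasi-likelihood test, with Benjamini-Hochberg adjustment over all tested genes and a threshold of 0.05. Intervals are unadjusted and use the moderated degrees of freedom. With 2 libraries a group, an exact permutation test cannot reach 0.05, and none was run. From each of 8 pathway lists, up to 4 called genes with the smallest p are named, and some are not reported here. The 3 most similar genes were found per phosphatase, and some of them are named. Heat shock, myeloid and TH17 lists served as checks. The fits were run on simulated counts with known fold changes, drawn separately for each library. That run cannot show how deviations shared by same-numbered libraries affect the calls. Alternatives were DESeq2 1.42.0, other scalings, no filter, a replicate block, all 12 libraries and leaving out each library, where the lone library is assumed to vary like the other group.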

Additional observations from a re-analysis of the deposited data

How the results depend on the processing

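Of 217 phosphatase estimates under alternatives, 8 changed sign. In CNS against ileum these were Dusp6 with total counts (0.17), with T cell scaling (0.43) and without CNS replicate 1 or ileum replicate 2 (-0.19 to 0.17 with 1 library left out), and Dusp1 without CNS replicate 1 or ileum replicate 1 (-0.062 to 0.078). The others were Dusp10 without Ad-control replicate 2 (-0.010 to 0.160) and Dusp2 without miR-21-/- replicate 1 (-0.37 to 0.72). The count of genes called in CNS against ileum, 1163 as reported, was 2542 with DESeq2, 2413 with no filter and 4000 over all 12 libraries. It was 893 to 1922 with 1 library left out, the highest without ileum replicate 1. Its split of 482 higher and 681 lower became 643 and 512 on total counts and 968 and 382 on T cell scaling. For Ad-c-Rel, 1673 became 1072 with DESeq2, 2802 with the replicate block, 19 over all 12 libraries (0 phosphatases) and 926 to 1369 with 1 library left out, with 935 when Ad-control replicate 1 was left out and 926 when it was Ad-c-Rel replicate 2. On total counts its 956 higher and 717 lower became 669 and 1027. The phosphatases called there numbered 3 to 5 with 1 library left out. For miR-21-/-, 0 genes became 793 with DESeq2 (2 phosphatases), 40 with no filter, 4807, or 35.8% of tested genes, with the replicate block (4 phosphatases), 1 over all 12 libraries, and 3 to 1327 with 1 library left out (0 to 2 phosphatases), the highest without miR-21-/- replicate 1 and 73 without control replicate 1. The cause of these shifts was not tested.

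Replicate numbers are shared between groups, but the labels do not say that they pair the samples. Deviations of same-numbered libraries correlated across genes at 0.08 in the tissues, 0.11 in the Ad libraries and 0.66 in the TH17(23) libraries. With the replicate block, Dusp4 was at -1.22 (edgeR adjusted p = 1.47e-06) and Dusp5 at -1.38 (0.000139) in miR-21-/-, and Dusp6 (-0.27, 0.0386) and Dusp16 (-0.30, 0.0260) also passed. In Ad-c-Rel it added Dusp2 (0.40, edgeR adjusted p = 4.80e-05), for 6 phosphatases, where it called 23.9% of all tested genes. Dusp16 in CNS had the lowest count (59), and its CNS libraries also differed from each other. The number of libraries, 2 a group, limits every call.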

Other observations

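Replicate 2 of CNS and of ileum had fewer genes with a count than replicate 1 (11545 against 14224 and 10771 against 13927), and some other dual-specificity phosphatases were at 0 in CNS replicate 2. Dusp7 was at 9.63 CPM in CNS replicate 1 and at 0 in CNS replicate 2, and Dusp8 was at 3.69 CPM and 0, while both were detected in all 8 cultured libraries. Dusp3, an atypical phosphatase that acts on ERK and JNK, was at 57.4 and 69.0 CPM in CNS, 12.9 and 3.11 CPM in ileum, 10.1 and 8.24 CPM in miR-21-/- and 21.3 and 20.8 CPM in control. Neither difference passed edgeR's adjusted test (adjusted p = 0.0853 and 0.112). These genes were chosen after their values were seen.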
